A study of Mus musculus with 9 samples.

Results

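The chromosome 9 block of clone-variable genes is a set of 10 of the 24060 genes in the expression table, chosen by name because each differed between the T-cell clones Rop7-III and Rop7-II and lies within one stretch of 11 Mb of mouse chromosome 9 (GRCm38), far from the rearranged T-cell receptor (TCR) loci. The genes are Cpne4, Col6a4, Abhd14a, Abhd14b, Pcbp4, Prss50, Tmie, Als2cl, Tdgf1 and Cmtm7, in chromosomal order. All 10 were found in the table and all 10 passed the filter on low values, a maximum TPM over 1 (transcripts per 1000000 transcripts, a level that accounts for transcript length). Because the comparison of Rop7-III with Rop7-II chose the genes, their values in that pair are given as a description, and whether a gene meets the rule there describes the choice and is not a test of it.

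The data are transcriptomes of CD8 T cells from the transnuclear mouse lines Rop7-I, Rop7-II and Rop7-III, with 3 biological replicates per line and 9 samples in all. Each line was made by somatic cell nuclear transfer from the nucleus of 1 CD8 T cell, so that each stands for 1 clone with its own rearranged TCR, and all recognize the Rop7 epitope of the parasite Toxoplasma gondii on the MHC class I molecule H-2Ld. Per the study, the mice were bred onto a BALB/c background and the profiled cells were homozygous for the TCR chains. Unstimulated splenocytes of all groups were held overnight with recombinant IL-2, and CD3+ CD8+ cells binding the H-2Ld-Rop7 tetramer were sorted, so the groups differ by line and by no treatment. As each clone is 1 line, whatever else separates the lines cannot be told apart from the TCR. The samples are labelled as biological replicates, but it is not stated that each came from a separate mouse, and p-values measure only the spread between these samples.

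Rop7-II replicate 1 stood apart in the markers of other cells, which were compared as sums of TPM. Markers of CD8 T cells were at 6270 to 7000 TPM in all samples. The sum of 14 B-cell markers was 939 TPM in Rop7-II replicate 1 against 68.9 to 420 TPM in the other 8 samples, and all 14 were highest in that sample. Among the others, the B-cell sum was 166 to 420 TPM in Rop7-I and 68.9 to 138 TPM in Rop7-III. It was 87.4 and 92.1 TPM in Rop7-II replicates 2 and 3. The sum of 9 myeloid markers was 776 TPM in Rop7-II replicate 1 against 144 to 309 TPM, with all 9 highest in it. The CD4 T-cell sum was 19.1 TPM there against 2.39 to 5.37 TPM, with 3 of its 4 markers highest in it. The other, Cd40lg, was at 0.7 TPM there and at 3.7, 2.9 and 3.01 TPM in Rop7-III. NK-cell markers reached at most 1.51 TPM, and erythroid markers ranged from 2.87 to 565 TPM, highest in Rop7-I replicate 2.

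Genes that lie beside each other on a chromosome may share a start region, regulatory elements or a chromatin domain, and nearby genes are inherited together. The 10 genes have no pathway in common. They encode a copine (Cpne4), a collagen chain (Col6a4), a pair of alpha/beta hydrolases (Abhd14a and Abhd14b), an RNA-binding protein (Pcbp4), a relative of serine proteases (Prss50), a component of the transduction channel of hair cells (Tmie), a protein that binds the small GTPase Rab5 (Als2cl), the Nodal co-receptor Cripto (Tdgf1) and a membrane protein of the MARVEL domain family (Cmtm7).

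The sequences shown are those of the hydrolase pair, of the divergent pair Tmie and Als2cl and of Tdgf1. They are examples of windows of close genes that do and do not share bases. Pcbp4 was not matched, and the windows of the other 4 genes are not shown. They are the promoter windows of RefSeq on GRCm38.p6, which are 300 bases long and span an annotated start, each written 5′ to 3′ on the strand of its gene. The reference is a C57BL/6 genome and the mice were of BALB/c background, so single letters may differ in these cells. Capitals mark GGGCGG and CAGCTG on either strand, where CCGCCC is GGGCGG on the other strand. Abhd14a lies on the minus strand (chr9:106447629-106447928) and Abhd14b on the plus strand (chr9:106448390-106448689), and these windows share no base. The annotated span of Abhd14b begins at 106447737, inside the Abhd14a window, and that of Abhd14a begins at 106451203, outside both windows. The windows therefore do not show that these start regions are separate. Tmie lies on the minus strand (chr9:110880024-110880323) and Als2cl on the plus strand (chr9:110880072-110880371), and these windows share 252 bases, so that the sequence of one is largely the reverse complement of the other. Tdgf1 lies on the minus strand (chr9:110946109-110946408).
Abhd14a: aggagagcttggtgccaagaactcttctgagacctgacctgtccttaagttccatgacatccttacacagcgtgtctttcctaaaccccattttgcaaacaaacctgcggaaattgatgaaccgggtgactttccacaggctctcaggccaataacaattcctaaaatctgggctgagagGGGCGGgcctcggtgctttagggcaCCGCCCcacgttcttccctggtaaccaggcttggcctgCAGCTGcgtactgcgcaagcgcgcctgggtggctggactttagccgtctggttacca
Abhd14b: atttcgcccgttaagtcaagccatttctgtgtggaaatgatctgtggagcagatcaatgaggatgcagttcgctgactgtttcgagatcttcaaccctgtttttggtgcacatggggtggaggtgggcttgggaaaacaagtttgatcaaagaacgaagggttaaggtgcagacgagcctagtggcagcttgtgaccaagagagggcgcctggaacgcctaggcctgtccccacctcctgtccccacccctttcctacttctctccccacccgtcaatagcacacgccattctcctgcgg
Tmie: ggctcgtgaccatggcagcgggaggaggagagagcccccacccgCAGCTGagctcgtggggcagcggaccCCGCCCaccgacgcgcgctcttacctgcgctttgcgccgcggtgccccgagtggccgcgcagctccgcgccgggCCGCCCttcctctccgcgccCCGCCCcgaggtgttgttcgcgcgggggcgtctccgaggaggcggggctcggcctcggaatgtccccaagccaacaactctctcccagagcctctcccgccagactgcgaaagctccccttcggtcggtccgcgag
Als2cl: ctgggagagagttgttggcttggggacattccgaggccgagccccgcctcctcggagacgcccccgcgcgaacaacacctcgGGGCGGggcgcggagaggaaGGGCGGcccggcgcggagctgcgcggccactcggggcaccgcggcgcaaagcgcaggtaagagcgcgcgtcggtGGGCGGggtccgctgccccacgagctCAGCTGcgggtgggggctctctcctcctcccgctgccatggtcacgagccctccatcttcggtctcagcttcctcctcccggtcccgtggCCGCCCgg
Tdgf1: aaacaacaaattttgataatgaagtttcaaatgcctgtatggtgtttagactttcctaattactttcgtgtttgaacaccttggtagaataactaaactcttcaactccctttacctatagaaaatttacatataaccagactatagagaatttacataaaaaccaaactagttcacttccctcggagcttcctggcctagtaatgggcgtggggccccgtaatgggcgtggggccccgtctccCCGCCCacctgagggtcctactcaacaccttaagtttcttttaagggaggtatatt

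Of the 10 genes, 9 had at least 1 promoter window in the RefSeq set, and they gave 12 windows, some of which overlap. GGGCGG, the GC box letters, was present in 8 of the 12 windows against 35.7% of all 32851 mouse windows. CAGCTG, an E-box, was present in 4 of 12 against 16.3% of all, and TATAAA in 0 of 12 against 13.6%. CCGGAA was present in 1 of 12 against 14.9%. Overlapping windows count a site more than once, as the CAGCTG of Tmie and that of Als2cl are the same site. The windows of Tmie and Als2cl shown hold 39 and 38 CG dinucleotides, where the median window of the genome holds 7, and that of Tdgf1 holds 7. The windows of Abhd14a and Abhd14b hold 12 and 11. These matches describe letters in the reference and are not evidence of a bound site.

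The odd clone was Rop7-II for 6 genes and Rop7-III for 4 genes. It was Rop7-I for 0 of the 10. The odd clone is the one farthest from the other 2 by the gap between ordered clone means of log2(TPM + 1). On the TPM scale itself Rop7-I was farthest for Cpne4, with means of 17, 0.0167 and 6.73 TPM in Rop7-I, Rop7-II and Rop7-III. Rop7-II stood apart for Cpne4, Col6a4, Abhd14a, Abhd14b, Pcbp4 and Cmtm7, and Rop7-III for Prss50, Tmie, Als2cl and Tdgf1. The 4 genes with Rop7-III as the odd clone lie within 88.2 kb, among 5 consecutive tested genes, and Rop7-III had the lowest mean in each. The other 6 flank them on both sides. Of these 6, Rop7-II was the lowest clone for the first 2 along the chromosome and the highest for the other 4. The assignment by gap stayed as it is for all 10 genes with a pseudocount of 0.1 and when each of the 9 samples was left out in turn. In bulk samples, fewer cells with a transcript and less of it per cell cannot be told apart.

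**Figure D1:**
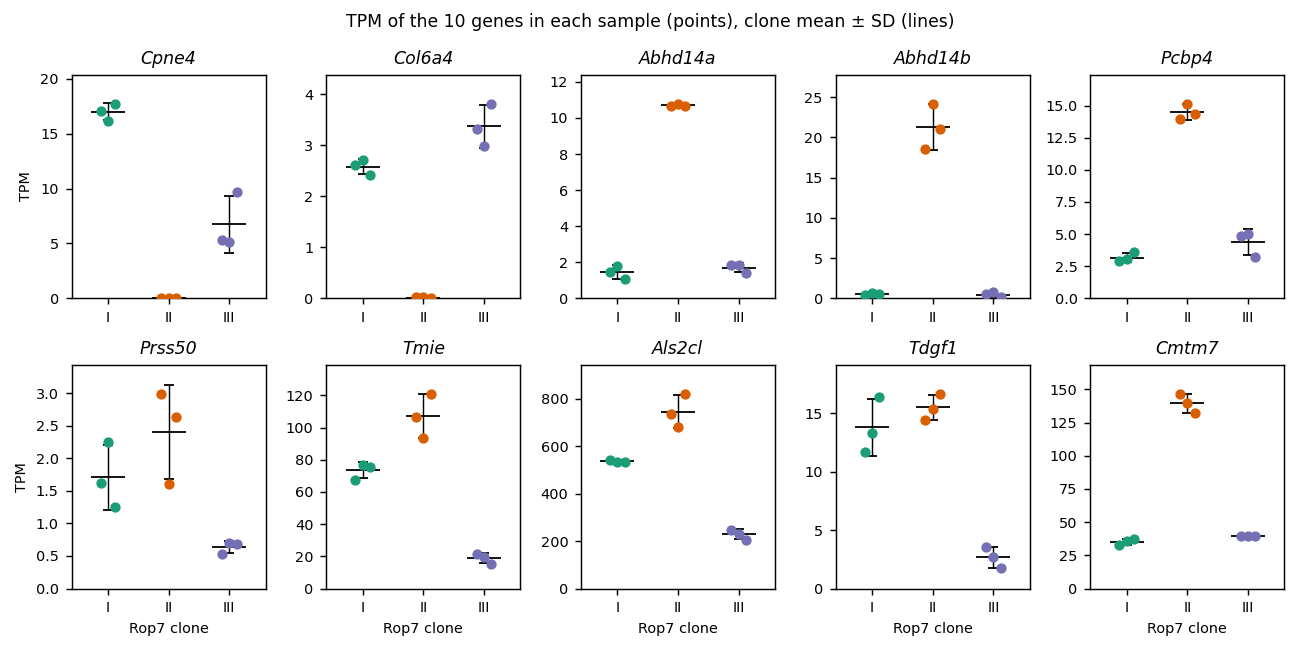
TPM (vertical axes, linear, from 0) of the 10 genes in each of the 9 samples, by Rop7 clone (horizontal axes); points are samples, long lines the clone mean and bars the SD, n = 3. Cpne4 and Col6a4 are near 0 in Rop7-II, while Abhd14a, Abhd14b, Pcbp4 and Cmtm7 are high in Rop7-II, and Prss50, Tmie, Als2cl and Tdgf1 are lowest in Rop7-III.

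The 3 pairs were fitted with limma on log2(TPM + 1) over 12115 tested genes, and a gene was called at an adjusted p under 0.01 (Benjamini-Hochberg) with at least a 2-fold difference. Between Rop7-III and Rop7-II all 10 passed, 2 of them with Rop7-III above and 8 with Rop7-III below, where 1.70% of all tested genes were called (0.966% above and 0.735% below). This count follows from the choice of the genes. Between Rop7-III and Rop7-I, 4 of the 10 were called, against 1.06% of all tested genes (0.611% above and 0.446% below), and all 4 were lower in Rop7-III. Between Rop7-I and Rop7-II, 6 were called, against 0.949% (0.437% above and 0.512% below), with 2 above and 4 below in Rop7-I. The samples of the clones did not overlap for 10, 7 and 8 of the 10 genes in Rop7-III against Rop7-II, Rop7-III against Rop7-I and Rop7-I against Rop7-II, where this held for 40.7%, 38.2% and 35.0% of all tested genes. The 2 pairs with Rop7-I each share a clone's samples with the pair that chose the genes, and a gene that differs between Rop7-III and Rop7-II must have Rop7-I away from at least one of them, so the counts describe where Rop7-I falls and are not independent evidence that the genes vary. Cpne4 was the 1 gene called in all 3 pairs, and Prss50 was called in the choosing pair alone. Without Rop7-II replicate 1 the number of the 10 genes called was 9, 4 and 6 in Rop7-III against Rop7-II, Rop7-III against Rop7-I and Rop7-I against Rop7-II, and Prss50 was the one lost. Over all tested genes the median log2 difference was -0.02 in Rop7-III against Rop7-II, -0.00 in Rop7-III against Rop7-I and -0.01 in Rop7-I against Rop7-II.

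**Figure D2:**
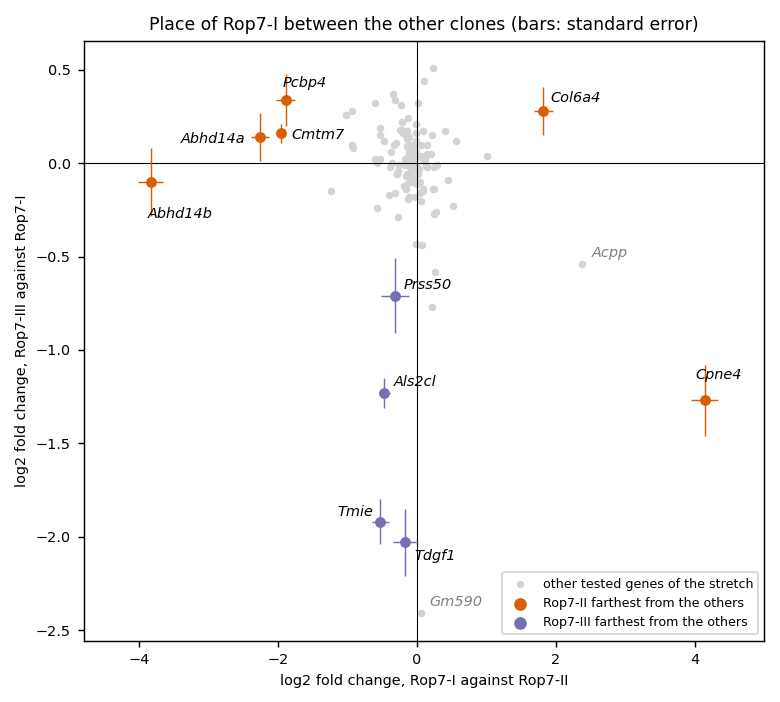
Log2 fold change on the log2(TPM + 1) scale of Rop7-I against Rop7-II (horizontal axis) and of Rop7-III against Rop7-I (vertical axis) for the 10 genes, with bars of 1 standard error, and for the 127 other tested genes of the same 11 Mb in grey. Genes with Rop7-II as the odd clone lie far left or right, from -3.83 for Abhd14b to 4.14 for Cpne4. Those with Rop7-III as the odd clone lie low, from -0.71 for Prss50 down to -2.03 for Tdgf1. Cpne4 is low as well, at -1.27. The 2 axes share the Rop7-I samples.

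Cpne4 (chr9:104566701-105034544, plus strand) encodes a copine, a protein that binds membrane phospholipids in the presence of calcium. It was at 17.07, 16.17 and 17.72 TPM in the Rop7-I replicates, at 5.34, 5.14 and 9.70 TPM in Rop7-III and at 0.05, 0 and 0 TPM in Rop7-II. No clones overlapped, and Rop7-II was listed at 0 in 2 of its 3 samples. Rop7-II lay 4.14 ± 0.19 (SE) below Rop7-I on the log2(TPM + 1) scale (adjusted p = 1.92e-06) and 2.88 ± 0.19 below Rop7-III. Rop7-III was lower than Rop7-I as well, with a log2 fold change of -1.27 ± 0.19 (adjusted p = 0.00312). With a pseudocount of 0.1 the first 2 differences were 7.22 and 5.84, so that their size is set by the pseudocount, and the adjusted p of the last was 0.0112. That last call was also lost without Rop7-I replicate 1, 2 or 3 (adjusted p = 0.0170, 0.0141 and 0.0153) and without Rop7-III replicate 1 or 2 (adjusted p = 0.0159 and 0.0157). It was kept without Rop7-III replicate 3 (adjusted p = 0.000206) and without any 1 Rop7-II replicate (adjusted p from 0.00288 to 0.0054). Rop7-III replicate 3, at 9.70 TPM, stood above the other Rop7-III samples.

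Col6a4 (chr9:105990318-106096828, minus strand) encodes an alpha chain of collagen VI, a component of the extracellular matrix. It was at 2.61, 2.71 and 2.42 TPM in Rop7-I, at 3.32, 2.98 and 3.81 TPM in Rop7-III and at 0.02, 0.02 and 0 TPM in Rop7-II. The Rop7-II samples were thus all near 0 while both other clones held low levels. Rop7-I was 1.82 ± 0.13 (SE) above Rop7-II on the log2(TPM + 1) scale (adjusted p = 3.25e-05), a size set by the pseudocount, as it was 4.57 with a pseudocount of 0.1. Rop7-III and Rop7-I did not differ at the threshold, with a log2 fold change of 0.28 ± 0.13 (adjusted p = 0.188), although their samples did not overlap. In Rop7-III against Rop7-II, the log2 fold change was 2.10.

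Cpne4 and Col6a4 were the only 2 of the 10 that were lower in Rop7-II than in both other clones. The gene before Cpne4 in tested order, Acpp (a prostatic acid phosphatase), was not among the 10 and had the same order of clones as Cpne4, from Rop7-I down to Rop7-II. Acpp was at 117.41, 130.53 and 135.2 TPM in Rop7-I, at 91.36, 84.31 and 86.9 TPM in Rop7-III and at 22.23, 21.99 and 27.1 TPM in Rop7-II. It was called in Rop7-I against Rop7-II, at 2.38 ± 0.08 on the log2 scale (SE, adjusted p = 2.83e-07), and its log2 fold change in Rop7-III against Rop7-II was 1.84. Mrpl3, on the other side of Cpne4, averaged 42.1, 45.6 and 43.8 TPM in Rop7-I, Rop7-II and Rop7-III and was called in no pair, and neither were Pik3r4 and Glyctk, the tested genes on either side of Col6a4.

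Abhd14a, Abhd14b and Pcbp4 are consecutive among the tested genes, between Acy1 and Parp3, and all 3 were high in Rop7-II. Abhd14a (chr9:106440051-106451203, minus strand) encodes a protein with an alpha/beta hydrolase domain. It was at 10.64, 10.79 and 10.67 TPM in Rop7-II, at 1.48, 1.82 and 1.08 TPM in Rop7-I and at 1.84, 1.83 and 1.42 TPM in Rop7-III. Rop7-I and Rop7-III overlapped, and every Rop7-II sample lay above both. Rop7-II had 7.33 times the mean TPM of Rop7-I and 6.31 times that of Rop7-III. On the log2 scale Rop7-I was -2.26 ± 0.13 (SE) against Rop7-II (adjusted p = 9.62e-06), and Rop7-III against Rop7-I was 0.14 ± 0.13 (adjusted p = 0.534).

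Abhd14b (chr9:106447737-106452923, plus strand) encodes the other alpha/beta hydrolase of the pair. Of the 8 genes with no sample at 0 TPM, it had the widest ratio of clone means. Cpne4 and Col6a4 had wider ones, with Rop7-II at 0.000981 and 0.00517 times the mean of Rop7-I. Abhd14b was at 18.5, 24.17 and 21.06 TPM in Rop7-II, at 0.42, 0.68 and 0.57 TPM in Rop7-I and at 0.52, 0.78 and 0.13 TPM in Rop7-III. Rop7-II was above every other sample, and the other clones overlapped at levels under 1 TPM. The mean of Rop7-II was 38.2 times that of Rop7-I and 44.6 times that of Rop7-III, and the log2 fold change of Rop7-I against Rop7-II was -3.83 ± 0.18 (adjusted p = 1.92e-06). Rop7-III against Rop7-I gave -0.10 ± 0.18 (adjusted p = 0.769), a difference whose sign turned to 0.0245 after quantile normalization and to 0.0829 without Rop7-III replicate 3. With Rop7-I and Rop7-III near 0, the log2(TPM + 1) scale understates the ratio of this gene.

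Pcbp4 (chr9:106452982-106464012, plus strand) encodes a poly(C)-binding protein. It was at 13.92, 15.14 and 14.37 TPM in Rop7-II, at 2.9, 3.06 and 3.57 TPM in Rop7-I and at 4.88, 5.01 and 3.18 TPM in Rop7-III. Rop7-II was again above both other clones, whose samples overlapped. Rop7-I against Rop7-II had a log2 fold change of -1.89 ± 0.14 (SE, adjusted p = 4.03e-05), and Rop7-III against Rop7-I of 0.34 ± 0.14 (adjusted p = 0.147).

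The annotated spans of Abhd14a and Abhd14b overlap by 3467 bases on opposite strands, their exons share 207 bases in the GENCODE annotation, and Pcbp4 begins 58 bases after the end of Abhd14b. As the libraries do not keep strand, reads from shared exonic bases cannot be assigned to one strand, and an antisense transcript annotated over 551 exonic bases of Abhd14b cannot be told from it. The shared exonic bases were 9.81% of the exonic length of Abhd14a and 7.75% of that of Abhd14b in GENCODE, while levels were quantified on RefSeq genes. Acy1, an aminoacylase gene 1.81 kb before Abhd14a, was called in no pair, and it was at 10, 10.12 and 10 TPM in Rop7-II, below every sample of the other clones. Parp3, an ADP-ribosyltransferase gene 6.31 kb after Pcbp4, was at 35.9, 35.34 and 32.84 TPM in Rop7-II, at 24.89, 21.49 and 22.59 TPM in Rop7-I and at 19.07, 19.08 and 19.51 TPM in Rop7-III. It passed the p threshold in Rop7-I against Rop7-II with a log2 fold change of -0.57 (adjusted p = 0.00036), short of 2-fold. The high level in Rop7-II at and above 2-fold was therefore seen in 3 consecutive genes, with a smaller difference of the same direction in the gene after them and not in the gene before them.

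Prss50, Tmie, Als2cl and Tdgf1 form the second group, in which Rop7-III was the lowest clone. Prss50 (chr9:110857964-110864629, plus strand) encodes a protein related to serine proteases that is known from testis. It was at 0.53, 0.70 and 0.68 TPM in Rop7-III, at 1.62, 2.25 and 1.26 TPM in Rop7-I and at 2.99, 1.6 and 2.63 TPM in Rop7-II. The Rop7-III samples were below all others, and Rop7-I and Rop7-II overlapped. Rop7-III against Rop7-I had a log2 fold change of -0.71 ± 0.20 (SE, adjusted p = 0.0462), which did not pass, and Rop7-I against Rop7-II one of -0.32 ± 0.20 (adjusted p = 0.306). Its log2 fold change in the pair that chose the genes was the smallest of the 10, at -1.04, and in 10 of 20 alternatives it no longer met the rule, with adjusted p up to 0.024. Its odd clone was therefore given by the gap between means and not by the tests.

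Tmie (chr9:110865687-110880073, minus strand) encodes a membrane protein known for its part in the mechanotransduction channel of inner ear hair cells. It was at 21.51, 19.62 and 15.45 TPM in Rop7-III, at 67.64, 76.98 and 75.83 TPM in Rop7-I and at 106.62, 93.78 and 120.94 TPM in Rop7-II. All 3 clones were separate. Rop7-III was 3.90-fold below Rop7-I by mean TPM, with a log2 fold change of -1.92 ± 0.12 (SE, adjusted p = 2.77e-05), and Rop7-I against Rop7-II gave -0.53 ± 0.12 (adjusted p = 0.017), which did not pass.

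Als2cl (chr9:110880120-110900530, plus strand) encodes a protein that binds the small GTPase Rab5, a regulator of endosomes, and it had the highest level of the 10, with a mean TPM over all samples above that of 97.9% of tested genes. It was at 248.54, 231.83 and 206.2 TPM in Rop7-III, at 540.91, 532.84 and 535.7 TPM in Rop7-I and at 735.32, 683.65 and 821.23 TPM in Rop7-II. The clones did not overlap and were graded from Rop7-II down to Rop7-III. Rop7-III against Rop7-I had a log2 fold change of -1.23 ± 0.08 (SE, adjusted p = 2.06e-05), and Rop7-I against Rop7-II one of -0.47 ± 0.08 (adjusted p = 0.0031), past the p threshold but short of 2-fold. The adjusted p of the latter was 0.0127, 0.0159 and 0.0136 without Rop7-I replicate 1, 2 and 3 in turn.

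Tmie and Als2cl are divergent genes whose annotated spans lie 46 bases apart in RefSeq, and 244 exonic bases are shared between them in GENCODE. In libraries without strand, reads from bases shared by both strands cannot be assigned to one. The bases shared in GENCODE are 7.89% of the exonic length of Tmie and 4.15% of that of Als2cl. Gm43127 is likewise annotated there on the other strand, over 669 exonic bases or 11.4% of Als2cl. Levels were quantified on RefSeq genes, so these shares need not hold for the gene models used. Within Rop7-III, Tmie had a mean of 18.9 ± 3.1 TPM and Als2cl of 229 ± 21.3 TPM (SD, n = 3). The change from Rop7-I was larger for Tmie than for Als2cl on the log2 scale, at -1.92 and -1.23, a difference between genes that was not tested.

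Tdgf1 (chr9:110939608-110946158, minus strand) encodes Cripto, a cell surface co-receptor for the growth factor Nodal. It was at 3.57, 2.69 and 1.73 TPM in Rop7-III, at 11.65, 13.3 and 16.4 TPM in Rop7-I and at 14.46, 15.39 and 16.65 TPM in Rop7-II. Rop7-I and Rop7-II overlapped, and Rop7-III lay below both. Rop7-III against Rop7-I had a log2 fold change of -2.03 ± 0.18 (SE, adjusted p = 0.000188), and Rop7-I against Rop7-II one of -0.17 ± 0.18 (adjusted p = 0.575).

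Between Als2cl and Tdgf1 lies Gm590, a predicted gene that was not among the 10 and that shared their pattern. It was at 0.46, 1.52 and 0.42 TPM in Rop7-III, at 5.74, 8.69 and 10.96 TPM in Rop7-I and at 7.33, 7.19 and 9.32 TPM in Rop7-II. Rop7-III was lower than Rop7-I with a log2 fold change of -2.41 ± 0.26 (SE, adjusted p = 0.000564). Thus Prss50, Tmie, Als2cl, Gm590 and Tdgf1 are 5 consecutive tested genes in which Rop7-III was the lowest clone. The tested genes on either side, Ccdc12 at 146 kb before Prss50 and Lrrc2 at 5.39 kb after Tdgf1, were called in no pair. Ccdc12 had log2 fold changes of -0.04, 0.16 and -0.20 in Rop7-III against Rop7-II, Rop7-III against Rop7-I and Rop7-I against Rop7-II, and Lrrc2 of 0.36, 0.15 and 0.21.

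Cmtm7 (chr9:114756836-114781993, minus strand) stands alone at the end of the stretch. It encodes a MARVEL domain membrane protein that is known from B cells, where it takes part in the surface expression of the B-cell receptor. It was at 146.57, 139.64 and 132.04 TPM in Rop7-II, at 32.98, 35.45 and 37.02 TPM in Rop7-I and at 39.54, 39.2 and 39.62 TPM in Rop7-III. Rop7-II was 3.97-fold above Rop7-I and 3.53-fold above Rop7-III by mean TPM, with little spread. An antisense transcript annotated over 4.86% of its exonic length cannot be told from it. Rop7-I against Rop7-II had a log2 fold change of -1.96 ± 0.05 (SE, adjusted p = 6.08e-08), and Rop7-III against Rop7-I one of 0.16 ± 0.05 (adjusted p = 0.0647). It was at 139.64 and 132.04 TPM in the Rop7-II replicates with B-cell sums of 87.4 and 92.1 TPM, and its log2 fold change in Rop7-I against Rop7-II was -1.92 without Rop7-II replicate 1. The nearest tested gene, its paralogue Cmtm6 at 7.48 kb, was called in no pair and averaged 212, 203 and 218 TPM in Rop7-I, Rop7-II and Rop7-III. Gpd1l, 117 kb to the other side, was higher in Rop7-II by less than 2-fold, with a log2 fold change of -0.94 (adjusted p = 3.82e-05) in Rop7-I against Rop7-II.

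**Figure D3:**
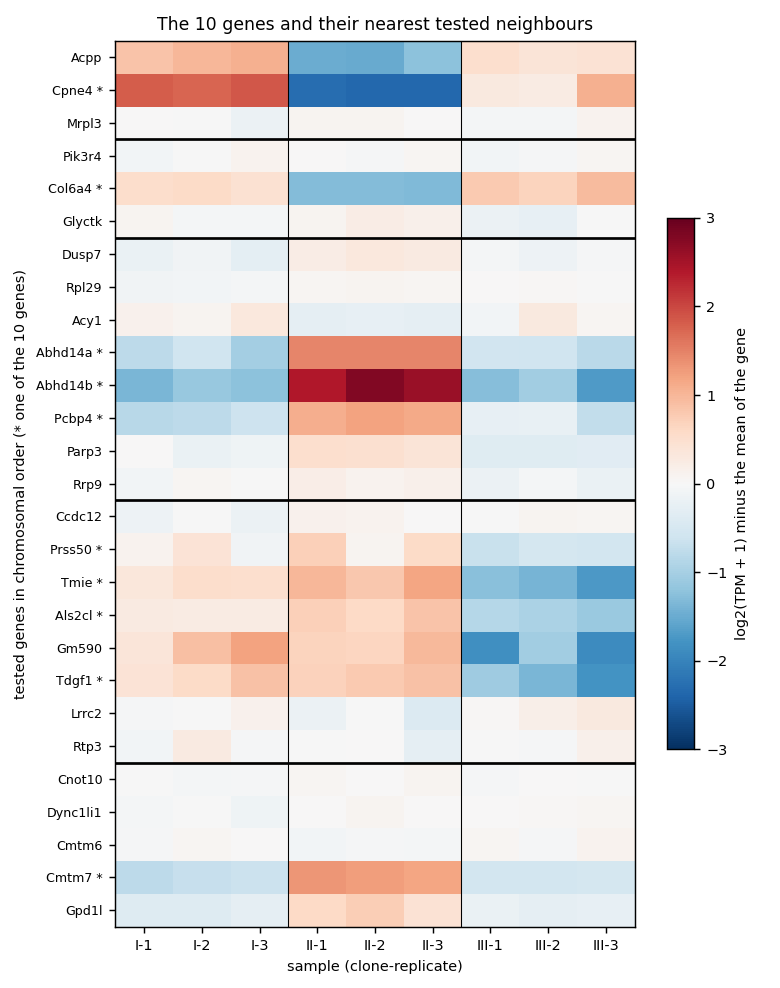
Log2(TPM + 1) of each gene less its mean over the 9 samples (colour, from -3 blue to 3 red) for the 10 genes, marked with a star, and their tested neighbours in chromosomal order (rows), by sample (columns, clone and replicate). Horizontal lines separate stretches that are not adjacent; Rop7-III is low in the 5 rows from Prss50 to Tdgf1, Rop7-II is high in the rows from Abhd14a to Pcbp4, and the rows of Ccdc12, Lrrc2 and Cmtm6 stay near 0.

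Whether the wider neighbourhood shared these patterns was examined over the 11 Mb. It holds 209 genes of the table, of which 137 were tested and 127 were not among the 10. With the 10 included, 9.49%, 3.65% and 5.11% of the 137 were called in Rop7-III against Rop7-II, Rop7-III against Rop7-I and Rop7-I against Rop7-II. Between Rop7-III and Rop7-I, 1 of these 127 was called, Gm590, which is 0.787% against 1.06% of all tested genes. Between Rop7-I and Rop7-II, 1 was called, Acpp, again 0.787%, against 0.949%. Between Rop7-III and Rop7-II, 3 were called (Acpp, Gm590 and 4930520O04Rik), which is 2.36% against 1.70% of all tested genes and 2.08% of the 528 tested genes on the rest of chromosome 9. The 10 were left out of the 127 and had been chosen on Rop7-III against Rop7-II, and every pair holds samples of one or both of these clones, so the shares among the 127 are a description only. 4930520O04Rik had a log2 fold change of 1.05 between Rop7-III and Rop7-II and did not meet the rule in 12 of 21 alternatives. The tested genes next to the 10 that are not among them number 11, of which 2, 1 and 1 were called in Rop7-III against Rop7-II, Rop7-III against Rop7-I and Rop7-I against Rop7-II. Large differences were thus found in single genes or short runs of genes, with tested genes called in no pair between them.

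Without the 2-fold minimum, more of the 127 other genes passed where Rop7-II was involved. Between Rop7-I and Rop7-II, 18 passed the p threshold, Acpp included, 2 higher and 16 lower in Rop7-I. This is 14.2% against 7.53% of all tested genes and 5.49% on the rest of chromosome 9. Over all tested genes 445 passed higher and 467 lower in Rop7-I, and on the rest of chromosome 9 10 and 19. Between Rop7-III and Rop7-I, 4 passed, Gm590 included, which is 3.15% against 4.85%. By the pattern of passing pairs, Rop7-II was the odd clone for 11 of the 127, or 8.66%. This compares with 3.85% of all tested genes and 3.41% of the rest of chromosome 9. Rop7-II was the highest clone in all 11. Over all tested genes it was highest in 234 and lowest in 233 of such genes, and on the rest of chromosome 9 in 11 and 7. The 11 of the stretch were Ppm1m, Twf2, Dusp7, Parp3, Mapkapk3, Tusc2, Gnai2, Mon1a, Atrip, Klhl18 and Gpd1l, named after their values were seen. Among them was Mapkapk3, a kinase gene of the p38 pathway, at 46.76, 42.01 and 38.13 TPM in Rop7-II, at 20.82, 21.29 and 23.55 TPM in Rop7-I and at 23.33, 23.6 and 22.42 TPM in Rop7-III. Gnai2, a G protein subunit of chemokine receptor signalling, averaged 559, 704 and 599 TPM in Rop7-I, Rop7-II and Rop7-III. Neighbouring genes are not independent, and no test was made of these shares.

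**Figure D4:**
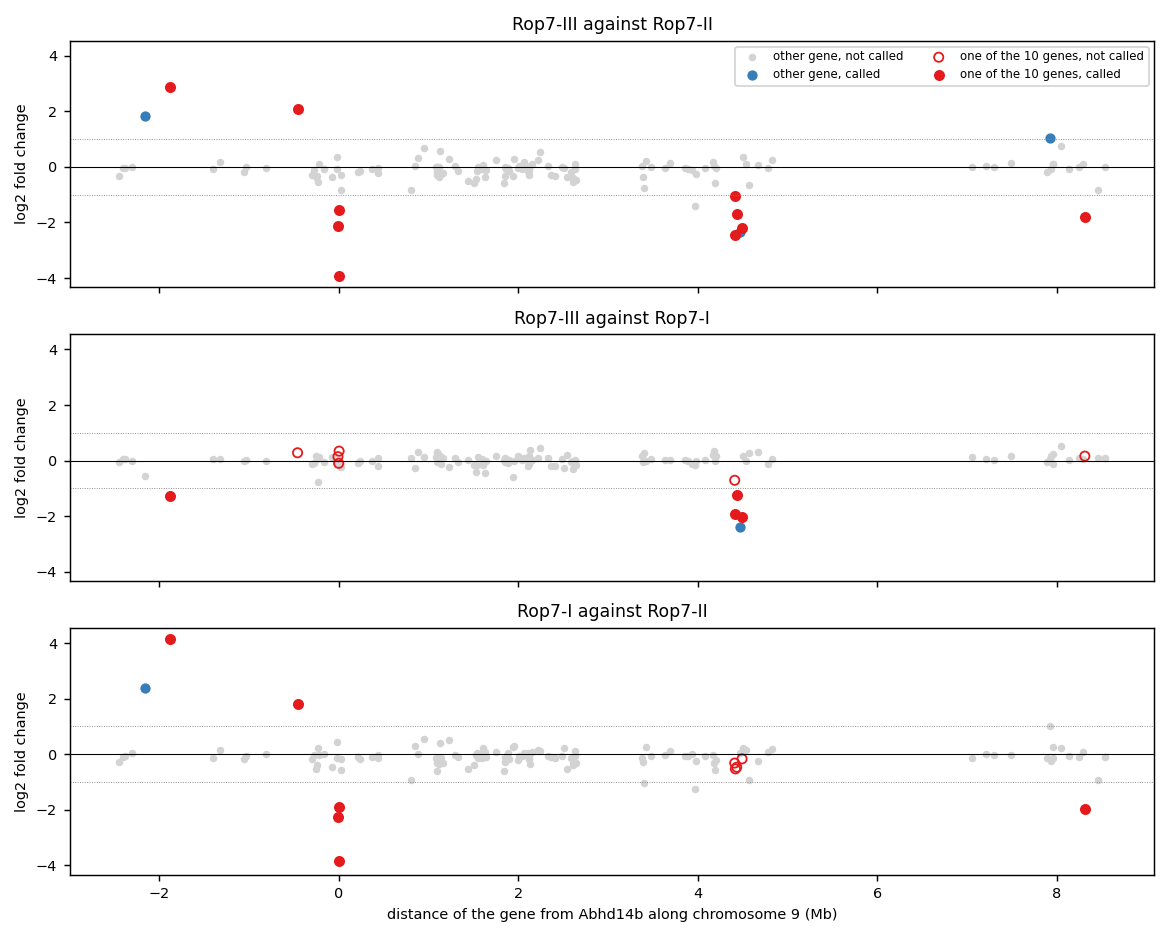
Log2 fold change on the log2(TPM + 1) scale (vertical axes) of the 137 tested genes of the stretch against their distance from Abhd14b in Mb (horizontal axis), for the 3 pairs of clones; dotted lines mark 2-fold. The called genes other than the 10 are Acpp, Gm590 and 4930520O04Rik in Rop7-III against Rop7-II, Gm590 in Rop7-III against Rop7-I and Acpp in Rop7-I against Rop7-II.

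With the pattern of passing pairs in place of the gap, 5 of the 10 had Rop7-II as the odd clone (Col6a4, Abhd14a, Abhd14b, Pcbp4 and Cmtm7), 2 had Rop7-III (Tmie and Tdgf1), 2 were graded with all 3 pairs past the p threshold (Cpne4 and Als2cl), and Prss50 was unresolved. Over all tested genes, Rop7-II was the odd clone for 3.85%, Rop7-III for 2.15%, Rop7-I for 1.09%, and 0.495% were graded.

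Just inside the choice of genes were Prss50, with a log2 fold change of -1.04 in Rop7-III against Rop7-II, and Pcbp4, with -1.55. Just outside it were Gm590, with -2.36, Acpp, with 1.84, and 4930520O04Rik, with 1.05, which were called in that pair and lie in the same stretch but were not on the list. Further outside were Mapkapk3 and Gpd1l, with -0.84 each. Ngp, a neutrophil granule gene of the stretch, had -1.39 and was not called.

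Each gene was also set beside all other tested genes for the likeness of its profile, by the root mean square difference of centred log2(TPM + 1) over the 9 samples. Cmtm7 was closest to Atp6v0e2 on chromosome 6, at 0.08, and to Dok2 on chromosome 14, at 0.12. Levels differed, as Atp6v0e2 averaged 0.0267, 2.73 and 0.0267 TPM in Rop7-I, Rop7-II and Rop7-III and Cmtm7 35.2, 139 and 39.5 TPM. With values near 0, the size of the change in Atp6v0e2 is set by the pseudocount, and so is this likeness. Pcbp4 was closest to Dok2 as well, at 0.15, and Abhd14a to Zfp862-ps on chromosome 6, at 0.17. Col6a4 was closest to Smc6 on chromosome 12, at 0.09. Col6a4 was near 0 in Rop7-II while Smc6 was not, so this likeness is set by the pseudocount as well. Prss50 was closest to Lman1l, which is also on chromosome 9, at 0.15. Tdgf1 was closest outside the 10 to its neighbour Gm590, at 0.32, and among the 10 to Tmie, at 0.20. Tmie was closest outside the 10 to Ly6k on chromosome 15, at 0.30. Ly6k was near 0 in Rop7-III, so its distance from Tmie depends on the pseudocount too. Cpne4 and Abhd14b had no close match, with 0.76 for Scg5 and 0.58 for Crip1. For Col6a4, Abhd14a, Abhd14b, Pcbp4, Tmie and Cmtm7 the closest gene outside the 10 lies on another chromosome. For Cpne4, Scg5 on chromosome 2 and the neighbour Acpp on chromosome 9 were both at 0.76.

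Relatives of the 10 genes were examined from lists of their families and pathways, with the 10 genes taken out. In no pair was any tested gene of the lists given here called at 2-fold. Among the Nodal and Cripto pathway genes (7 tested), Smad3, which carries Nodal signals to the nucleus, was higher in Rop7-III than in Rop7-I, by 0.53 on the log2 scale (adjusted p = 0.00439), and the other 6 did not pass in that pair. Nodal itself was not among the tested genes. Of 15 other Abhd genes, Abhd17c and Abhd15 passed in Rop7-III against Rop7-I in opposite directions, at 0.41 and -0.34. Abhd17a and Abhd17c passed in Rop7-I against Rop7-II at -0.27 and -0.39. In Rop7-III against Rop7-II, Abhd15 passed at -0.55 (adjusted p = 0.000148). None of the other copines (3 tested), CMTM genes (5), poly(C)-binding proteins (4), collagen VI chains and receptors (2), hair cell channel genes (2) or PRSS proteases (5) passed in any pair. The median log2 fold changes of these lists lay between -0.16 and 0.21 over the 3 pairs, where the medians of all tested genes lay between -0.02 and -0.00.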

How the data were processed

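Polyadenylated RNA of sorted CD8 T cells was sequenced in 9 samples, grouped by the line in their labels. The authors aligned the single-end reads, made without strand, and quantified mm10 RefSeq genes with RSEM 1.2.11 (version also in the submitters' processing notes, which list DESeq2 1.8.1), and deposited TPM per gene and sample. TPM hold no counts, which leaves the depth of each sample unknown, and intervals for counting error are not given. TPM sum to 1000000 to 1000001 per sample, so a value is relative to all other transcripts.

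Values were taken as log2(TPM + 1), which understates changes of low genes. Of 24060 genes, 12115 with a maximum TPM over 1 were tested, and 7126 were at 0 throughout. The 3 pairs of lines were fitted to all 9 samples with limma 3.58.1 in R 4.3.3, with a trend of the spread, and p-values were adjusted by Benjamini-Hochberg within a pair. All adjusted p are from limma, which was tested on simulated data first. The authors tested counts with DESeq2, which does not apply to TPM. Gene positions are RefSeq on GRCm38, found for 23900 genes, of which 22549 matched by symbol and 1351 by synonym. Exon overlaps are from GENCODE.

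The members, the family and marker lists and the tests were chosen with earlier results of these data known. Genes named are the 10, called genes of the stretch, nearest tested neighbours, the closest profiles, and relatives; others are marked in the text. Alternatives were pseudocounts of 0.1 and 0.5, other filters and scalings, no trend, sample weights, fewer lines, a replicate block, leaving out samples one at a time, and other thresholds. The closest profiles of 1 of the 10 genes and 1 list of relatives are not reported here.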

Additional observations from a re-analysis of the deposited data

How the results depend on the processing

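The odd clone of each of the 10 genes by gap was unchanged under the settings computed for it, a pseudocount of 0.1 and each sample left out. These settings were all on a log scale, and in TPM Rop7-I was farthest for Cpne4. A filter that kept genes with all 9 samples at 1 TPM or more removed Cpne4, Col6a4, Abhd14b and Prss50 by their low values and left 6 of the 10 called in Rop7-III against Rop7-II and 3 in Rop7-I against Rop7-II, with 79 genes over the whole table and 0 other genes of the stretch in Rop7-III against Rop7-I. Other genes of the stretch called in Rop7-I against Rop7-II numbered 2 after quantile normalization and 2 at an adjusted p under 0.05. Without a fold minimum, 1488, 588 and 912 genes over the whole table passed in Rop7-III against Rop7-II, Rop7-III against Rop7-I and Rop7-I against Rop7-II, and 27, 4 and 18 other genes of the stretch. Leaving out 1 sample gave 170 to 239, 82 to 160 and 93 to 158 genes over the table, 9 to 10, 3 to 4 and 6 of the 10 genes, and 1 to 2 other genes of the stretch in Rop7-I against Rop7-II. The lowest of these, 82 genes, was without Rop7-III replicate 2. Log2 fold changes that turned sign were small. Abhd14b in Rop7-III against Rop7-I went from -0.10 to 0.0245 after quantile normalization and ranged from -0.24 to 0.083 with 1 sample left out, above 0 without Rop7-III replicate 3. 4930520O04Rik in the same pair went to -0.0132 with sample weights and ranged from -0.10 to 0.22 with 1 sample left out, below 0 without Rop7-I replicate 1, Rop7-III replicate 2 or Rop7-III replicate 3. Gm590 in Rop7-I against Rop7-II ranged from -0.14 to 0.28, below 0 without Rop7-I replicate 3 or Rop7-II replicate 2. The cause was not tested.

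No pairing of the samples by replicate number was seen in the correlations between clones. Deviations of samples with the same number correlated between -0.388 and 0.106, and not every sample correlated best with its own number. Whether samples of the same number shared a preparation was not tested. With the replicate block, 9, 4 and 6 of the 10 genes were called, Prss50 being lost with an adjusted p of 0.0181. Depth is unknown, and values under about 1 TPM, such as those of Abhd14b in Rop7-I and Rop7-III, cannot be ordered with confidence.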
